A study of Mus musculus with 6 samples.

Results

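Otx2, Pou3f1, Fgf5, Zic2, Zic5, Foxd3 and Sox11 form a set of 7 genes, 6 transcription factors and 1 secreted growth factor, that mark or act in the primed epiblast, the pluripotent tissue of the embryo after implantation. The members are the genes of the count table that carry these symbols, 7 of 41388. All 7 passed the filter on low counts, as did 14717 genes in all. Their RNA was measured by strand-specific poly(A) RNA-seq in mouse induced pluripotent stem cells (iPSCs), 3 lines with the genotype miR-34a-/- (knockout) and 3 wild-type lines. Every line was of C57BL/6 background, came from embryonic fibroblasts of littermate embryos, had been reprogrammed with pMX retroviruses for Oct4, Sox2 and Klf4, was picked as a single colony and was kept on irradiated fibroblast feeders, so each line is 1 clone and carries the vectors. No source used here says which lines share an embryo, so p-values measure only the spread between these lines.

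Mouse pluripotent cells pass from a naive state, as in the blastocyst, through a formative to a primed state, as in the epiblast after implantation. Naive cells in culture hold low levels of the later genes, which rise when FGF and ERK signalling is active. OTX2 and POU3F1 (also called OCT6) redirect OCT4 to new enhancers in that passage, FGF5 is its textbook marker, and the ZIC, FOXD3 and SOX11 proteins are also used later in the neural plate, neural crest and neurons. miR-34a is a microRNA induced by p53 that pairs through its seed with sites in 3′ UTRs. The comparison asks how the levels of these genes differ in pluripotent cells that lack it.

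The deleted microRNA and the sites that match its seed in the members are shown first, since the knockout removes that microRNA. The mature microRNA comes from RefSeq (build GRCm38.p6, chr4:150068473-150068494, plus strand), with the seed, bases 2 to 8, in capitals. The complement of the seed, CACTGCC in DNA letters, was searched in the longest annotated 3′ UTR of each gene (sense strand only, GENCODE M21). It occurred once each in Pou3f1 (bases 289 to 295 of 1599), Zic5 (465 to 471 of 2538) and Sox11 (2023 to 2029 of 6957). It did not occur in the 3′ UTRs of Otx2 (1029 bases), Fgf5 (1478), Zic2 (609) or Foxd3 (588). Among 13468 tested coding genes, 17.1% held the 7 letters at least once. The 3 sites are printed with their matching bases in capitals.
mmu-miR-34a-5p: uGGCAGUGucuuagcugguugu
Pou3f1 site: gggcgccctgtgccCACTGCCt
Zic5 site: aaaattgagatataCACTGCCa
Sox11 site: gccctcccctccccCACTGCCc
The match in Zic5 is followed by an A, opposite base 1 of the microRNA, and those in Pou3f1 and Sox11 are not. All 3 genes with a match were lower in the knockout lines, as the values further on show, and so was Zic2, which held none. A part of the sites in these differences was not tested. A match is a description of letters and not evidence of a working site. Tested genes with a match had a median log2 fold change (knockout over wild-type, log2FC from here on) of 0.03 and those without one 0.002, with longer 3′ UTRs in the first group (median 2264 against 960 bases).

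Levels are given in CPM, a gene's counts scaled to the same library size for all lines with TMM factors, as mean ± SD of the 3 lines of a genotype (n = 3). The targeted gene, Mir34a, had 1 count in knockout replicate 1, 2 in wild-type replicate 1 and 0 elsewhere, so a poly(A) library gives no check of the deletion. Library totals ran from 8432597 to 29654855 counts, with knockout replicate 3 and wild-type replicate 2 the shallowest, and 3 counts came to 0.375 CPM in the latter. All 9 iPSC defining genes passed the filter (5 higher, 2 lower, 2 not called). Pou5f1 stood at 1183 ± 82 CPM in knockout and 871 ± 71.8 CPM in wild-type lines. Reads of the Oct4 and Sox2 vectors may be among the counts of Pou5f1 and Sox2. Lin28a, with the smallest p of the 9, was lower, at 302.5 ± 22.3 CPM in knockout and 507.9 ± 41.3 CPM in wild-type lines. The genotypes differed across the whole transcriptome: 26.5% of the 14717 tested genes were called higher and 24% lower in the knockout (edgeR quasi-likelihood test, Benjamini-Hochberg adjusted p under 0.05), 50.5% in either direction, and in 56% the libraries of the genotypes did not overlap. The lines also differed in sex chromosomes: 4 Y-linked genes (Ddx3y, Eif2s3y, Kdm5d and Uty) summed to 38.2 to 41.2 CPM in the wild-type libraries and to 0.123 to 0.358 CPM in the knockout libraries. Of 512 tested X-linked genes, 278 were called higher and 76 lower in the knockout, with a median log2FC of 0.37 against 0.00 for autosomal genes. A part of Y chromosome content or X dosage in any result below cannot be told apart from that of miR-34a, since both differ between the same groups. Xist, the X-inactivation RNA, stood at 4.46 to 5.76 CPM in the knockout and 3.00 to 3.16 CPM in the wild-type libraries. None of the 7 members is on a sex chromosome, and a fit on autosomal genes alone called the same 5 of them as the full fit. That fit compares the same lines, so it cannot separate sex chromosome content from miR-34a.

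Of the 7 genes, 5 passed the test, 4 lower (Sox11, Pou3f1, Zic5 and Zic2) and 1 higher (Foxd3) in the knockout, and in the same 5 the libraries of the genotypes did not overlap. Otx2 and Fgf5 were not called. With 50.5% of all tested genes called, a count of 5 of 7 is not read as particular to these genes. The median log2FC of the 7 was -0.34, beside 0.01 for all tested genes. What the members show is their direction and size one by one, from Sox11, 2.19-fold lower, to Foxd3, 1.72-fold higher.

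**Figure D1:**
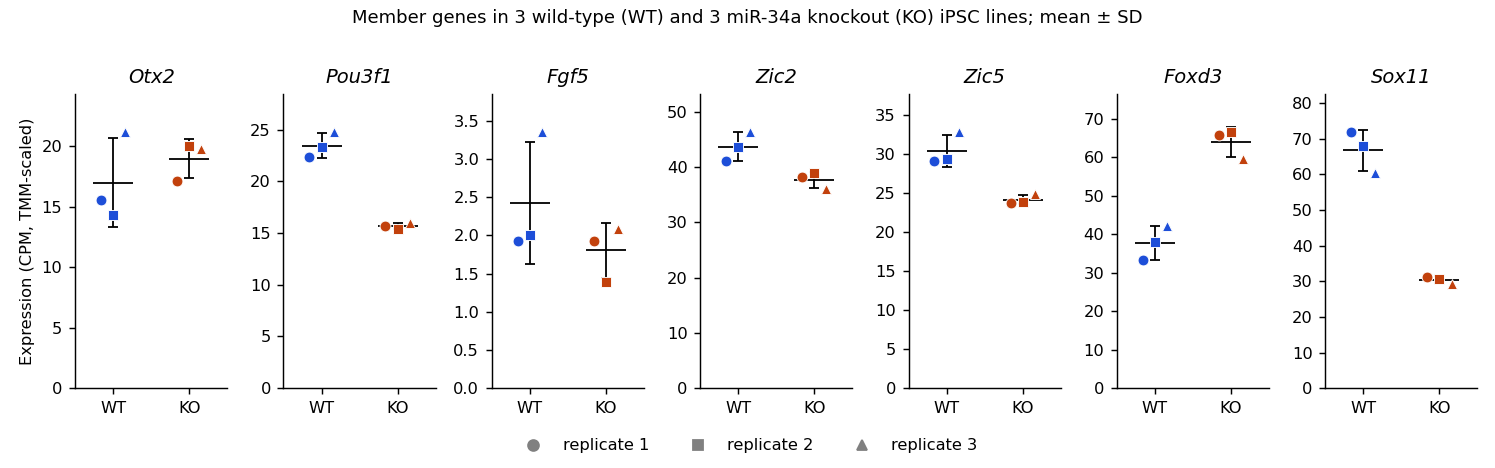
Expression of the 7 genes in CPM (y axis from 0, a separate scale for each gene) in 3 wild-type (WT, blue) and 3 knockout (KO, red) lines; symbols are replicates, black bars the mean ± SD. The groups stand apart for Pou3f1, Zic2, Zic5, Foxd3 and Sox11, with Foxd3 as the one gene that is higher in the knockout, and they overlap for Otx2 and Fgf5.

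Sox11, an HMG-box factor of the SoxC group that acts in neural progenitors and newborn neurons, changed most. The gene (ENSMUSG00000063632) is a single exon on chromosome 12, 27334264 to 27342574 on the minus strand (mm10). Knockout replicates 1 to 3 gave 615, 858 and 239 counts and wild-type replicates 1 to 3 gave 1751, 543 and 936, which come to 31.2, 30.7 and 29.3 CPM against 71.8, 67.9 and 60.3 CPM. The knockout libraries lay close together and far under the lowest wild-type library. The mean fell from 66.7 ± 5.85 to 30.4 ± 0.973 CPM (log2FC -1.13, SE 0.072, edgeR adjusted p = 1.9e-10).

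Foxd3, a forkhead repressor needed by both early epiblast and embryonic stem cells and later a marker of neural crest, went the other way. It is a single-exon gene (ENSMUSG00000067261) on chromosome 4, 99656299 to 99658622 on the plus strand. With 1299, 1859 and 485 counts it stood at 65.9, 66.5 and 59.5 CPM in the knockout libraries, and with 809, 303 and 653 counts at 33.2, 37.9 and 42.1 CPM in the wild-type libraries. The highest wild-type library was well under the lowest knockout library. Foxd3 rose from 37.7 ± 4.45 to 63.9 ± 3.88 CPM (log2FC 0.78, SE 0.080, edgeR adjusted p = 2.4e-07).

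Pou3f1, a POU homeodomain factor that promotes neural fate in the epiblast, is also a single exon (ENSMUSG00000090125, chromosome 4, 124656807 to 124660655, plus strand). It had 309, 429 and 130 counts in the knockout and 545, 186 and 384 in the wild-type libraries. The 3 knockout values of 15.7, 15.3 and 15.9 CPM were nearly alike, and the wild-type values of 22.4, 23.3 and 24.7 CPM were all higher. The mean fell from 23.5 ± 1.21 to 15.6 ± 0.299 CPM (log2FC -0.59, SE 0.083, edgeR adjusted p = 9.5e-06).

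Zic5 and Zic2 encode zinc finger factors of 1 family and lie head to head on chromosome 14, their starts 9758 bases apart. Zic5 (ENSMUSG00000041703, 122456795 to 122465677, minus strand) stood at 23.7, 23.8 and 24.8 CPM in the knockout libraries (468, 666 and 202 counts) and at 29.0, 29.3 and 32.7 CPM in the wild-type libraries (708, 234 and 508 counts). It fell from 30.4 ± 2.07 to 24.1 ± 0.576 CPM (log2FC -0.34, SE 0.076, edgeR adjusted p = 0.001). The groups did not overlap, but the difference was 1.27-fold.

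Zic2 (ENSMUSG00000061524, 122475435 to 122479852, plus strand), which binds enhancers in embryonic stem cells and is needed for forebrain and neural tube formation, changed least among the called members. It stood at 38.1, 38.8 and 36.1 CPM in the knockout libraries (752, 1086 and 294 counts) and at 41.1, 43.5 and 46.3 CPM in the wild-type libraries (1003, 348 and 718 counts). It fell from 43.7 ± 2.57 to 37.7 ± 1.45 CPM (log2FC -0.20, SE 0.068, edgeR adjusted p = 0.02), and the nearest libraries were 38.8 and 41.1 CPM. That call was lost with DESeq2 (adjusted p = 0.051), without knockout replicate 1 (0.053, edgeR) and without wild-type replicate 3 (0.082, edgeR).

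Within a library the ratio of Zic2 to Zic5 counts, which needs no library scaling, was 1.61, 1.63 and 1.45 in the knockout and 1.42, 1.49 and 1.41 in the wild-type libraries. On the log2 scale (0.5 counts added) the genotypes differed by 0.12, at 0.643 ± 0.09 against 0.524 ± 0.041 (SD, n = 3). An exact permutation test over the 6 libraries, two-sided, gave p = 0.2, where 3 against 3 cannot go below 0.1. With that lower limit the test could not reach the threshold used for the other tests. It therefore cannot decide whether the neighbours differed in response. The ratios of the genotypes overlapped, with knockout replicate 3 (1.45) under wild-type replicate 2 (1.49).

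Otx2, the homeobox factor that drives the exit from the naive state and later patterns the forebrain, did not pass the test. The gene (ENSMUSG00000021848, chromosome 14, 48657677 to 48673819, minus strand) has 11 annotated transcripts, which the counts do not separate. It stood at 17.09, 20.03 and 19.74 CPM in the knockout libraries (337, 560 and 161 counts) and at 15.5, 14.3 and 21.1 CPM in the wild-type libraries (378, 114 and 328 counts). Wild-type replicate 3 was the highest of all 6 libraries, and the other wild-type libraries were the lowest. The means were 18.9 ± 1.62 and 17.0 ± 3.67 CPM (log2FC 0.14, 95% interval -0.13 to 0.41, edgeR adjusted p = 0.37). Without wild-type replicate 3 the log2FC was 0.32 and Otx2 was called higher (edgeR adjusted p = 0.02), so 1 library decides this call.

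Fgf5, the one secreted protein of the set, was the scarcest member and was not called. The gene (ENSMUSG00000029337) has 3 exons on chromosome 5, 98254184 to 98277030 on the plus strand. It gave 38, 39 and 17 counts in the knockout and 47, 16 and 52 in the wild-type libraries, that is 1.93, 1.395 and 2.09 CPM against 1.93, 2.00 and 3.35 CPM. Wild-type replicate 3 stood above all others, which mixed. The means were 1.80 ± 0.361 and 2.43 ± 0.801 CPM (log2FC -0.50, 95% interval -1.03 to 0.02, edgeR adjusted p = 0.1). Leaving out wild-type replicate 1 gave -0.73 and a call (edgeR adjusted p = 0.041), and leaving out wild-type replicate 3 gave -0.20 (edgeR adjusted p = 0.56). The interval covers both no change and a 2-fold fall, and single wild-type lines decide the call.

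**Figure D2:**
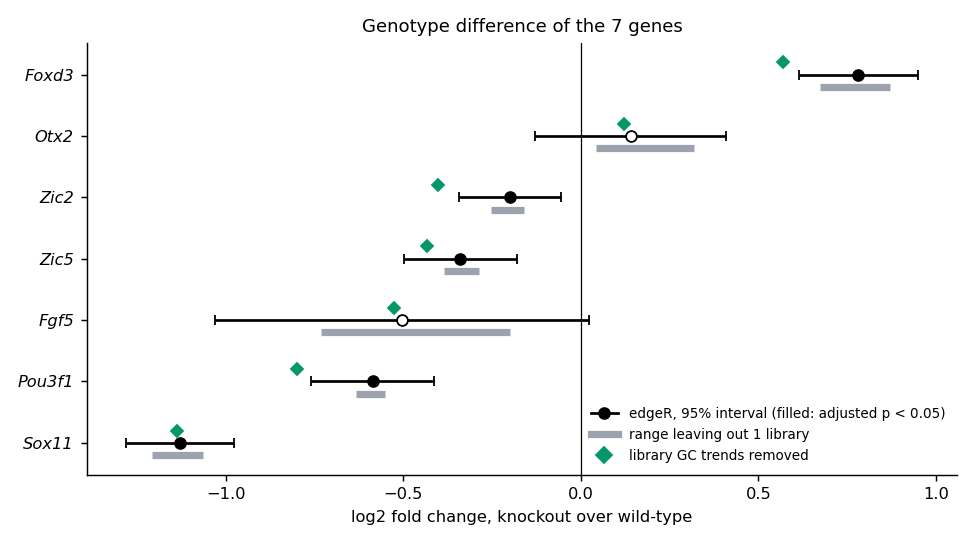
Log2 fold change, knockout over wild-type (x axis), of each gene: black points are edgeR estimates with 95% intervals (filled where adjusted p was under 0.05), grey bars the range when 1 library is left out, and green diamonds the estimates with library GC trends removed. Sox11 at -1.13 and Foxd3 at 0.78 are the ends of the range, and the intervals of Otx2 and Fgf5 include 0.

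Among the wild-type lines, replicate 3 had the highest value in 6 of the 7 genes and the lowest in Sox11. Wild-type replicate 1 had the lowest value in 5 genes and the highest in Sox11. No such order held in the knockout lines, where replicates 2 and 3 were highest in 3 genes each. The coefficient of variation was lower in the knockout than in the wild-type lines for each of the 7 genes. It was lowest for Pou3f1 (1.91% against 5.15%) and highest for Fgf5 (20.1% against 33.0%). The shares of all tested genes with such replicate orders, or with a lower coefficient in the knockout, were not counted. Neither trait is thus read as particular to the 7. Over all genes, chi-square per degree of freedom was 5.43 to 20 for pairs of knockout libraries. It was 2.25 to 7.59 for pairs of wild-type libraries, at unequal depths. With 3 lines a group these are descriptions.

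Levels of different genes were compared per kilobase of annotated exon, taken as the union over all transcripts of a gene. For Otx2 that union is 4221 bases and its longest transcript 2592, so its place depends on the length used. In the wild-type lines the order ran from Foxd3 (16.2 CPM per kb) through Zic2 (15.2), Sox11 (8.02), Zic5 (6.21), Pou3f1 (6.09) and Otx2 (4.02) to Fgf5 (0.9703). The ranges over the 3 lines overlapped for Foxd3 and Zic2 and for Zic5 and Pou3f1, and not for the other neighbours. In the knockout lines Foxd3 stood alone at 27.5 CPM per kb, followed by Zic2 (13.1), Zic5 (4.93), Otx2 (4.49), Pou3f1 (4.07), Sox11 (3.66) and Fgf5 (0.720), with an overlap of Otx2 and Pou3f1 only. Sox11 thus went from the third place to the sixth. Fgf5 was last in both genotypes, and among all tested genes its mean CPM was at the 18.8th percentile, while the 6 factors were between the 50.8th (Otx2) and the 73.1st (Foxd3).

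Annotated genes that overlap a member or lie next to it were read beside it, since no source used here states the counting options, strand among them, and reads of antisense partners may then not be told apart. The antisense gene Otx2os1 shares 154 exon bases with Otx2 and had 1 to 8 counts a library, against 114 to 560 for Otx2. Gm2164 shares 330 exon bases with Pou3f1 and had 0 counts in every library. Gm23366, a microRNA gene within the exon of Foxd3, also had 0 counts.

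2 noncoding neighbours were expressed near members that changed, and neither was called. 2610035F20Rik, transcribed away from Zic2 from 236 bases upstream and lying between Zic2 and Zic5, had means of 4.04 (knockout) and 4.19 CPM (wild-type; log2FC -0.002, edgeR adjusted p = 0.99). Gm12688, 1316 bases from Foxd3 on the opposite strand, stood at 6.66 and 6.36 CPM (log2FC 0.03, edgeR adjusted p = 0.88). The coding gene Utp11, 17505 bases from Pou3f1, was not called either (log2FC -0.19, edgeR adjusted p = 0.058). The remaining neighbours with a row in the table, those of Fgf5 (Prdm8 and Cfap299) among them, were under the filter on low counts.

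The 250 bases before the starts of Foxd3 and Sox11, the members with the strongest rise and fall, are printed to show what lies at a gene of each direction (RefSeq, GRCm38.p6). Foxd3 is chr4:99656049-99656298 on the plus strand and Sox11 chr12:27342719-27342968 on the minus strand, both written along the gene. The RefSeq start of Sox11 lies upstream of the start of the gene model given above (27342574), so those bases do not adjoin that model. Promoter windows of 300 bases, 250 before and 50 after the start, were searched on both strands for TATAAA (in 13.6% of 32851 promoters), CCAAT (37.4%), GGGCGG (35.7%), the octamer ATGCAAAT (1.74%), the SOX core CATTGT (12.6%) and the TCF/LEF core CTTTGA (16%). Matches are in capitals.
Foxd3 promoter: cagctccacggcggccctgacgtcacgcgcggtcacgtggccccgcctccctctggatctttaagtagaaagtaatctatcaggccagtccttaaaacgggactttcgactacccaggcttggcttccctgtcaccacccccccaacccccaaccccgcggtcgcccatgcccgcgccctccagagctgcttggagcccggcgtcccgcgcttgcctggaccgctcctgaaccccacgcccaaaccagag
Sox11 promoter: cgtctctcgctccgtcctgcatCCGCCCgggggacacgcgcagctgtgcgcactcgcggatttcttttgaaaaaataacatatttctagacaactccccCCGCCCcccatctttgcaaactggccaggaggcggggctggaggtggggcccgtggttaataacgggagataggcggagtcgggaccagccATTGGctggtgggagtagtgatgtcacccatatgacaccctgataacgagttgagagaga
Sox11 held GGGCGG at 2 places and CCAAT at 1, and Foxd3 held none of the 6. Both windows were rich in CpG, with 25 in Foxd3 and 21 in Sox11, beside a median of 7 over all promoters. RefSeq entries were at hand for 5 of the 7 members, the windows of Fgf5 and Zic5 held 29 and 15 CpG, and the 4 windows of Otx2 held 6, 8, 11 and 16. The octamer, SOX and TCF/LEF letters occurred in none of the windows of these 5 members, which says nothing about the factors.

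GC content of the transcripts moved with the fold changes of all genes. With tested genes in 10 equal bins by GC content, the median log2FC was -0.21 in bin 1 (lowest GC) and 0.14 in bin 10. Foxd3 (65.1% GC), Pou3f1 (63.9%) and Zic2 (59.9%) were in bin 10. Zic5 (49.8%) was in bin 5, Fgf5 (47.0%) and Otx2 (46.8%) in bin 4 and Sox11 (46.5%) in bin 3. With a GC trend taken out of each library, the same 5 members were called in the same directions. Zic2 then had a log2FC of -0.40 (edgeR adjusted p = 3.4e-05), 2 times its value above, Foxd3 0.57 and Pou3f1 -0.80, while Sox11 kept -1.14. Among all called genes the share that was higher moved from 52.5% to 40.4%. The members with high GC content thus included the one that rose and 2 that fell.

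**Figure D3:**
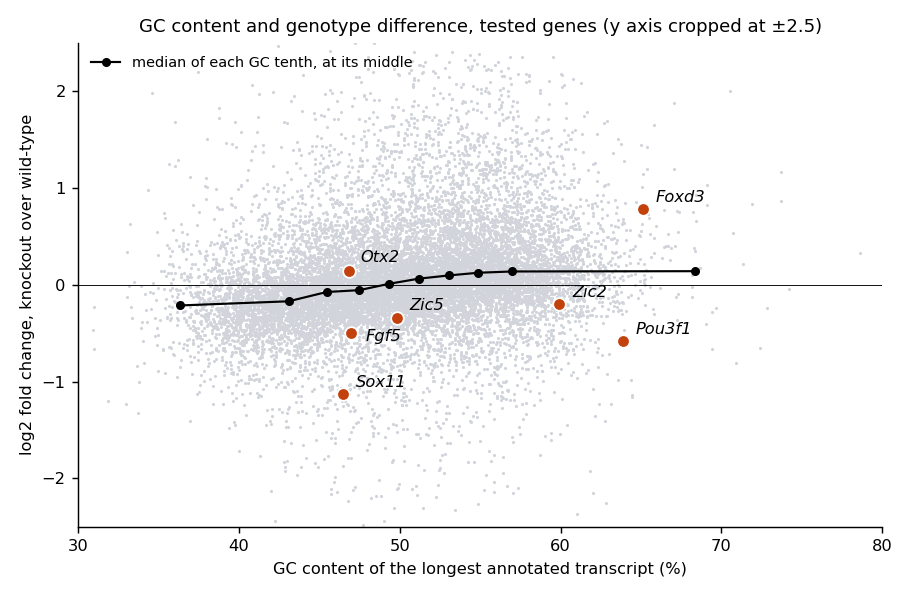
Log2 fold change, knockout over wild-type (y axis, cropped at ±2.5), against GC content in percent of the longest annotated transcript (x axis) for the tested genes (grey), with the median of each of 10 GC bins (black line) and the 7 genes in red. The medians rise from -0.21 to 0.14, while Foxd3 and Pou3f1, at similar GC content, lie on opposite sides of 0.

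Relatives of the members by gene family went both ways: of 17, 11 were tested, 5 higher, 3 lower and 3 not called (median log2FC 0.46). Zic1 had 1 to 7 counts a library and Zic4 had 0. Sox12, of the same SoxC group as Sox11, fell from 83.9 ± 3.49 to 55.8 ± 1.90 CPM (log2FC -0.59, edgeR adjusted p = 1.5e-07). Fgf4, the main FGF of naive cells, rose from 239.6 ± 6.27 to 329.6 ± 5.75 CPM (log2FC 0.46, edgeR adjusted p = 3.2e-07). Crx, a homeobox gene related to Otx2, had 17, 27 and 8 counts in the knockout and 0 in each wild-type library, so it passed the filter through the knockout alone.

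Other genes of the primed and formative epiblast were split. Of 33, 32 were tested, and 14 were lower, 10 higher and 8 not called, with a median log2FC of -0.12. Dnmt3b, a de novo DNA methyltransferase, fell from 520.2 ± 26.1 to 168 ± 12.0 CPM (log2FC -1.64), and Lef1, a WNT effector, and Mycn fell by 1.404 and 0.93 on the log2 scale. Epha2, an ephrin receptor, rose from 175 ± 4.57 to 438 ± 32.0 CPM (log2FC 1.33, edgeR adjusted p = 8.7e-13). These lists were drawn up with earlier results of these data known and give no independent evidence of a direction.

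Of 20 naive pluripotency genes, all tested, 15 were higher, 3 lower and 2 not called, with a median log2FC of 0.42. Zfp57, a guardian of imprints, Tcl1, an AKT coactivator, and Nr0b1, an X-linked nuclear receptor, rose by 0.98, 1.21 and 0.86 on the log2 scale. Dppa3, a maternal factor, fell by 1.80. Foxd3, which naive cells also express, moved in the direction of these 15 naive genes and of the 10 other primed genes called higher. Sox11, Pou3f1, Zic5 and Zic2 moved in the direction of the 3 naive and 14 other primed genes called lower. Klf4 is among the 15, and reads of its vector may be among its counts.

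**Figure D4:**
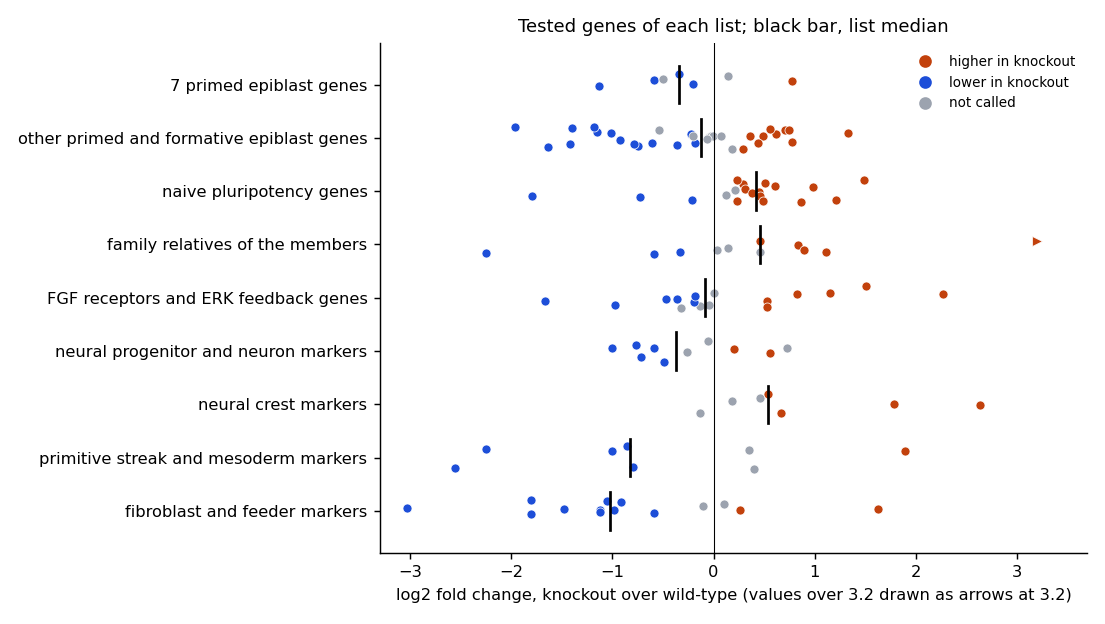
Log2 fold change, knockout over wild-type (x axis), of the tested genes in each list (rows), coloured by call, with the list median as a black bar; the arrow is Crx, off the axis, whose 0 wild-type counts allow no fold. The medians lie at -0.34 for the 7 genes, -0.12 for other primed genes, 0.42 for naive genes and -1.02 for fibroblast markers.

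Receptors and feedback genes of the FGF and ERK pathway, through which FGF5 and FGF4 signal, also went both ways: of 16 tested, 6 were higher, 6 lower and 4 not called (median -0.09). Spry4 and Spry2, feedback inhibitors, rose by 2.27 and 0.83 on the log2 scale, and the immediate early gene Egr1 by 1.505. Spry4 went from 38.6 ± 2.21 to 187 ± 21.4 CPM. The receptor gene Fgfr2 fell from 32.2 ± 0.496 to 10.03 ± 0.907 CPM (log2FC -1.67, edgeR adjusted p = 9.6e-12). After removal of the GC trends, 10 of the 16 were called lower.

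Neural and neural crest cells also express some of the 7 genes, and iPSC cultures can hold feeder and early mesodermal cells, so markers of these cells were read beside them. Fewer cells of a type and less RNA per cell cannot be told apart in such bulk libraries. Of 14 neural markers, 10 were tested, 5 lower, 2 higher and 3 not called, and the 14 summed to 243.9 to 252.1 CPM in the knockout and 309.6 to 323.2 CPM in the wild-type libraries. Nes, an intermediate filament of progenitors, fell by 0.77 and Nefl, of neurons, by 1.00 on the log2 scale. Olig2 and Pax6 fell by 0.59 and 0.72, while Dcx, of newborn neurons, had 1 count in all. Tubb3 and Sox1 were the 2 called higher, by 0.20 and 0.56 on the log2 scale (edgeR adjusted p = 0.0094 and 0.028). None of the 10 was called higher with GC trends removed or without knockout replicate 1. The summed level of neural markers was thus lower in the same lines as Sox11 and Pou3f1, and its part in those results was not tested.

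Neural crest markers, which FOXD3 accompanies in the embryo, were scarce: the 10 summed to 28.2 to 29.4 CPM in the knockout and 19.1 to 23.3 CPM in the wild-type libraries. Of 7 tested, 4 were higher and 3 not called. Sox10, a defining marker, had 26, 26 and 8 counts in the knockout and 5, 2 and 1 in the wild-type libraries (log2FC 2.64, edgeR adjusted p = 6.2e-05), and Sox9, Foxc1 and Twist1 rose by 0.66, 1.79 and 0.54. Sox10 and Foxc1 passed the filter on low counts through the knockout libraries alone, and with at least 1 CPM required in 3 samples both dropped out and 2 of the list were called higher. Pax3 and Pax7 had 0 to 7 counts a library. Tfap2b, also of the crest, went the other way, with 0 counts in each knockout library and 9, 2 and 7 in the wild-type libraries, and was not tested. The summed crest level was higher in the same lines as Foxd3, and its part in the rise of Foxd3 was not tested.

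Of 10 primitive streak and mesoderm markers, 8 were tested, 5 lower, 1 higher and 2 not called, and the 10 summed to 20.6 to 23.4 CPM in the knockout and 35.0 to 40.3 CPM in the wild-type libraries. T, the defining streak factor, fell from 7.19 ± 1.68 to 1.31 ± 0.472 CPM, Fgf8 from 2.32 ± 0.232 to 0.455 ± 0.271 CPM and Eomes from 14.7 ± 0.727 to 8.23 ± 1.30 CPM, while Hand1 rose by 1.89 on the log2 scale. Fgf8 passed the filter through the wild-type and Hand1 through the knockout libraries alone. Of 15 fibroblast and feeder markers, 14 were tested, 10 lower, 2 higher and 2 not called, with sums of 630.4 to 740.3 CPM in the knockout and 901.8 to 1172 CPM in the wild-type libraries. Tagln, Acta2 and Postn fell by 1.81, 1.81 and 3.03 and S100a4 rose by 1.62 on the log2 scale. With each knockout replicate left out in turn, and without wild-type replicate 3, 1 fibroblast marker was called higher in place of 2. The part of either cell type in the results of the 7 genes was not tested.

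For each member the 2 genes of most similar profile were taken by Pearson's r of log2 CPM over the 6 libraries, among tested genes with a mean of at least 1 CPM. For the called members such an r is mostly set by the genotype difference between the same 2 groups. For Otx2 and Fgf5, whose groups overlapped, the spread between lines of a genotype also sets it. Each r is given as a description. Sox11 was most like Zfp507 and the imprinted gene Peg10 (r = 0.999 for both), and Peg10 had means of 151.5 (knockout) and 371.7 CPM (wild-type). Foxd3 was most like Pltp (0.998) and Fam189a2 (0.997), and Pou3f1 like Cd276 and Sars2 (0.999 for both). Zic5 was most like Pla2g7 (0.998) and Tor3a (0.997), and Zic2 like Mrpl27 (0.995) and Spint2 (0.993). For the members that were not called, the nearest profiles were Gm28268 (0.996) and Gm26543 (0.988) for Otx2 and Dynlt1f (0.989) and Isca1 (0.980) for Fgf5. No member was among the nearest of another, though Pou3f1 and Zic5 had r = 0.978 and Foxd3 and Sox11 r = -0.976 with each other.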

How the data were processed

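The authors deposited raw counts per gene and repeat family, 1 column per library, not normalized. Per the submitters' processing notes, reads were handled with featureCounts 1.4.5 and TopHat2 2.0.11 on build mm10, and no source used here states the counting options or the annotation. Of 42290 rows, 41388 are Ensembl genes, 40254 of them with a symbol in the GENCODE M21 name table, and 902 are repeat families, which were left out. A table of a repeat run was not used, since the names of its 6 columns fit no label.

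Genes were filtered with filterByExpr, scaled with TMM and tested with edgeR 4.0.16 in R 4.3.3 (glmQLFit with robust = TRUE, glmQLFTest, two-sided, no covariate), with p adjusted over all 14717 tested genes and a threshold of 0.05. The SE of a log2 fold change is its size over the root of the F statistic, and 95% intervals use the test's degrees of freedom. Pairs of libraries within a genotype differed beyond sampling noise (chi-square per degree of freedom 5.43 to 20 in the knockout and 2.25 to 7.59 in the wild-type). Library GC trends were smoothing splines with 5 degrees of freedom, entered as offsets. The steps were tested on simulated counts.

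The members and the 10 other lists (gene symbols by pathway or cell type) were chosen with earlier results of these data known. Named genes are the members, up to 4 genes with the smallest p in each list, overlapping and neighbouring genes, the 2 most similar profiles and 5 sex-linked genes; 1 gene that this rule names is not reported here. Zic1, Zic4, Klf4, Sox1, Tubb3, Dcx, Pax3, Pax7 and Tfap2b were named after their values were seen. The alternatives were DESeq2 1.42.0, limma voom (limma 3.58.1), other scalings and filters, the replicate number as a block, GC trends removed and each library left out.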

Additional observations from a re-analysis of the deposited data

How the results depend on the processing

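Sox11, Pou3f1, Zic5 and Foxd3 kept their direction and call under all 17 alternatives, 1 of which (autosomal genes only) was chosen after the data were seen. Their log2 fold changes ran from -1.21 to -1.06, -0.80 to -0.55, -0.43 to -0.29 and 0.57 to 0.87. Zic2 lost its call with DESeq2 (-0.21, adjusted p = 0.051). With 1 library left out, its log2 fold change ran from -0.25 to -0.16, that of Otx2 from 0.044 to 0.32, that of Fgf5 from -0.73 to -0.20, and the members called higher numbered 1 to 2. Otx2 was called without wild-type replicate 3, Fgf5 without wild-type replicate 1, and Zic2 not without knockout replicate 1 or wild-type replicate 3. With fewer libraries such calls rest on less data, and the cause was not tested. With the replicate number as a block, no call of a member changed (Zic2 -0.20, Fgf5 -0.34). Deviations from the genotype means correlated with r = 0.0885, -0.0198 and 0.11 between same-numbered libraries. Between libraries of different numbers r ran from -0.116 to 0.0629. Deviations from means of 3 lines are not independent, so these values cannot decide whether the numbers pair the lines.

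List counts moved by over 1.5 times here: FGF and ERK genes lower, 6 to 10 (GC trends removed); relatives higher, 5 to 3, and neural crest higher, 4 to 2 (at least 1 CPM in 3 samples); neural crest lower, 0 to 1 (no filter); neural higher, 2 to 0 or 1 (9 alternatives); fibroblast higher, 2 to 1 (7 alternatives). Fgf5 had the fewest counts of the 7 genes, at 16 to 52 a library; the parts of depth and of spread between lines in its missing call were not separated.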
